A study of Mus musculus with 4 samples.

Results

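The regions described here were open in control fibroblastic reticular cells and had low accessibility in the same cells from mice with Notch2 deleted through Ccl19-Cre. The assay is ATAC-seq, in which a transposase cuts accessible DNA and the reads over a stretch of DNA measure how open it is. Levels are in CPM, counts scaled to a common library total. Members were autosomal regions with both control libraries at 4 CPM or more and both knockout libraries under 2 CPM. The rule found 194 members among 110110 regions in all, and among 44618 autosomal regions with both controls at 4 CPM or more, of which the members are 0.435%. Because these CPM values chose the members, the difference between genotypes at a member is a description and carries no test.

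Fibroblastic reticular cells are the stromal cells of lymph nodes that build the reticular fibre network and guide lymphocytes. They were sorted as BP3hi Pdpn+ CD31- CD45- cells from peripheral lymph nodes of female mice aged 12 weeks on a C57BL/6 background, 50000 cells per library. The control group had 2 libraries from Notch2 fl/fl mice, and the knockout group, written Notch2_cKO, had 2 libraries from Ccl19-Cre x Notch2 fl/fl mice. Both groups carry the floxed Notch2 alleles, and the controls are littermates. In Ccl19-Cre mice the recombinase is driven by Ccl19 regulatory sequences, so deletion is limited to cells in which these are or were active. Each library pooled 6 mice, and the pools were labelled as separate samples.

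Notch receptors are cleaved when a neighbouring cell presents a ligand. The released intracellular domain enters the nucleus and joins the DNA-binding protein RBPJ at its target genes, among them the Hes and Hey family of transcriptional repressors. Many sites that respond to such signals are enhancers, stretches of open DNA that lie within introns or far from the gene they act on. A region is named here for the nearest gene, which need not be its target. A gene end means either boundary of the gene as tabulated, so it can be the start of the gene.

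A single member lay within 1000 bp of a gene start in the RefSeq promoter table, at Cd80, which encodes a costimulatory ligand that binds CD28 and CTLA-4 on T cells. The member spans chr16:38458551-38459050 (build mm10), and the middle of its best window lies 133 bp from the tabulated start. The gene as tabulated spans 38457430 to 38495958 and so begins upstream of this start. The sequence is shown because it is the only member promoter for which letters could be read. It comes from RefSeq on build GRCm38.p6, runs over chr16:38458683-38458932 on the plus strand and ends just before the tabulated start. Capitals mark motif matches.

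Cd80: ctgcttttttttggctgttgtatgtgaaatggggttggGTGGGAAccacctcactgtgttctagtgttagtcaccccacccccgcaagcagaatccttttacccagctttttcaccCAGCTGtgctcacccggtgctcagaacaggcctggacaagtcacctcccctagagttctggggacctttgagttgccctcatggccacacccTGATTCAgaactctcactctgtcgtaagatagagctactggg

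The first capitals are the RBPJ core TGGGAA with its preferred flanking base, GTGGGAA, at bases 39 to 45. The second are the E-box CAGCTG at bases 117 to 122. The third, TGATTCA at bases 209 to 215, match the AP-1 motif as searched, TGANTCA, where N is any base. Both strands were searched. Of 32851 promoter windows of the same length, 21.6% hold TGGGAA, 5.42% hold GTGGGAA, 13.0% hold CAGCTG and 6.75% hold TGANTCA. Also searched, without a match in this window, were the TEAD motif GGAATG, the RUNX motif TGTGGT, the ETS motif CCGGAA, the EBF motif CCCNNGGG and the NF-kappaB motif GGGANNTCC. GC content was 52.8%, beside a median of 52.4% over all the promoter windows. These matches are descriptions of letters and not evidence of binding.

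The counts over the best windows of all regions summed to 23629588 and 25740366 in control 1 and 2, and to 30260067 and 12340742 in Notch2_cKO 1 and 2. At these depths 4 CPM corresponds to 94.5 and 103.0 counts in the controls, and 2 CPM to 60.5 and 24.7 counts in Notch2_cKO, so single members are read with the least precision in Notch2_cKO 2. Of the Y-linked genes, Ddx3y had 221 counts and Eif2s3y 201 in control 2, whereas the other 3 libraries had 0 at both. The pools are labelled female, so control 2 goes against its label there. Only autosomal regions could become members, and counts without control 2 are given beside some of the counts of called regions. The other counts rest on all libraries, control 2 included. Accessibility at the Notch2 start region was 57.6 and 59.3 CPM in the controls and 54.1 and 43.9 CPM in Notch2_cKO (log2 difference −0.14, SE 0.10, edgeR quasi-likelihood adjusted p = 0.341). Open DNA at the promoter does not report whether an exon was deleted, so it is no check of the genotype labels. Of 10 reticular fibroblast marker genes, 9 had a region (Ccl19 had none), and their regions summed to 634.5 and 637.8 CPM in the controls and 677.3 and 699.1 in Notch2_cKO.

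Other cell types could contribute to a sorted pool. Regions of 7 of 10 B cell marker genes summed to 198.6 and 198.4 CPM in the controls and 190.6 and 189.7 in Notch2_cKO. For 10 of 12 T cell markers (without Cd3g and Cd8b1) the sum was 217.2 and 213.1 against 269.9 and 268.4 CPM, for 10 of 11 myeloid and dendritic cell markers (without Itgax) 226.3 and 220.6 against 259.0 and 255.3, and for all 11 blood endothelial markers 521.1 and 519.1 against 642.4 and 616.7. Lymphatic endothelial markers (7 of 8, without Ccl21a) stood at 323.6 and 320.5 against 293.4 and 307.8 CPM. None of the 194 members was assigned to a gene of the 10 marker lists, which hold 213 open control regions. At the overall share of 4.35 members per 1000 open control regions a list of that size would hold few or none, so nothing is read from this count. The part of these cell types in the members' values was not tested. In bulk libraries fewer cells of a type and less open DNA per cell cannot be told apart.

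The members were of middling height in the controls and low in Notch2_cKO. Their median was 5.12 CPM in control 1 (range 4.02 to 13.9) and 4.74 in control 2 (4.00 to 12.1). In Notch2_cKO 1 the median was 1.42 CPM (0.264 to 1.98), and in Notch2_cKO 2 it was 1.62 (0.324 to 1.94). Over all regions the medians were 3.22 and 3.26 CPM in the controls and 3.50 and 3.65 in Notch2_cKO. In the controls 63.3% and 60.6% of all regions lay below the median member, and in Notch2_cKO 21.4% and 23.2% did. The median member thus lay near the lower quartile of all regions in Notch2_cKO (1.59 and 1.70 CPM), and only 11 members were under 1 CPM in both Notch2_cKO libraries. These values go against calling the members closed, and they are described here by their CPM limits. At the upper end, 8 members were at 8 CPM or more in both controls. Among open control regions the members are at the low end, with 12.3% and 6.87% of those regions below the median member in control 1 and 2.

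**Figure D1:**
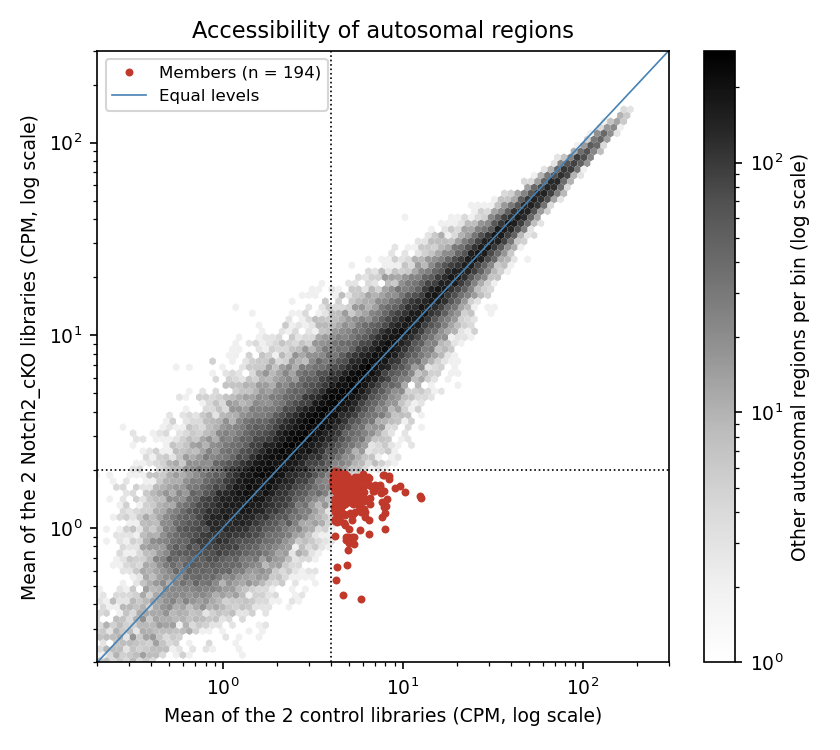
Mean CPM of the 2 Notch2_cKO libraries against mean CPM of the 2 control libraries for autosomal regions, both on log axes. Grey shading gives the number of other regions per bin, red points are the 194 members, and dotted lines mark the thresholds. The members lie in a band below 2 CPM that begins at the control threshold of 4 CPM.

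The control mean exceeded the Notch2_cKO mean 3.48-fold at the median member, with a range of 2.14-fold to 13.8-fold. The ratio reached 3-fold at 138 members, 4-fold at 65, 5-fold at 32 and 10-fold at 2. Within genotypes, the higher control exceeded the lower by a median factor of 1.09 (at most 1.72), and the higher Notch2_cKO library exceeded the lower by 1.20 (at most 3.06). Control 1 was the higher control at 109 members and Notch2_cKO 1 the higher knockout library at 81. A fit of genotype to all regions called all 194 members lower, where 11.2% of all regions were called lower, but nothing is read from that count because the rule used the same values. Both Notch2_cKO libraries lay below both controls in 26.7% of all regions, which the rule fixes for every member.

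Choosing regions with 3 libraries and reading the fourth shows how much of the set depends on each library. Without control 1 the rule gave 255 regions, and control 1 then stood at a median of 4.57 CPM in them, with 194 (76.1%) at 4 CPM or more. Without control 2 it gave 277, with a median of 4.39 CPM in control 2 and 70.0% at 4 CPM or more. Leaving out Notch2_cKO 1 gave 253 regions with a median of 1.62 CPM there, of which 76.7% were under 2 CPM. Leaving out Notch2_cKO 2, the shallowest library, gave 353 regions with a median of 1.94 CPM there, of which 55.0% were under 2 CPM. In the same order, the left-out library lay beyond both libraries of the opposite genotype in 255, 277, 253 and 352 of these regions. The other 3 libraries had to pass the thresholds, which favours this outcome, so nothing is read from these counts.

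The thresholds cut through a continuous range. At the control threshold 9 members stood at the same lowest count in control 2, 4.00 CPM, among them regions assigned to Lrrk2, Cadps and Fads2b, and the nearest regions outside stood at 3.98 CPM, assigned to Hs3st5, Abi3bp and no gene. At the Notch2_cKO threshold the nearest members inside stood at 1.98 CPM, assigned to Dock6, Zbtb16 and no gene, and the nearest outside at 2.02 CPM, assigned to Robo1, Nmu and Cdc7.

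Among Notch target genes, one member was found, in Heyl, which encodes a Hes and Hey family repressor. It spans chr4:123247151-123247600 and lies inside the gene as tabulated. Heyl stood at 5.25 and 4.58 CPM in the controls and at 0.628 and 0.648 CPM in Notch2_cKO, from 124, 118, 19 and 8 counts. The libraries of each genotype are close to each other there, and the mean was 7.70-fold lower in Notch2_cKO. The rule chose these values, and those of Notch2_cKO rest on few counts, so this closeness and ratio are loosely fixed. The other Heyl regions were not chosen by the rule and can be tested. The region at chr4:123239401-123240050 had 23.0 ± 3.25 CPM in the controls and 8.91 ± 1.83 in Notch2_cKO (SD, n = 2 each; log2 difference −1.40, SE 0.15, edgeR adjusted p = 2.77e-06). The region at the low-coordinate end of the gene, chr4:123233401-123234050, had 21.2 ± 0.854 and 9.47 ± 1.01 CPM (log2 difference −1.22, SE 0.14, edgeR adjusted p = 4.63e-06). Both fell, and the remaining 3 Heyl regions did not pass the test. The wider list of Notch target genes had 90 other regions, of which 25 fell and 5 rose, with a median log2 difference of −0.14. Without control 2 these were 19 and 2. For Notch receptors, ligands and regulators the counts were 36 lower and 28 higher of 236 regions (19 and 15 without control 2), with no member. Over all regions 11.2% were called lower and 12.5% higher. These shares are the background for the counts of called regions by gene and list that follow, where all libraries were used. They are no background for the counts without control 2, which come from a fit with lower overall shares. The shares of that fit are given with the regions next to the members.

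The lowest ratios were at Fam189a1 and Pcdh15. At Fam189a1 (chr7:64757201-64757750, inside the gene), accessibility was 5.80 and 5.94 CPM in the controls and 0.529 and 0.324 CPM in Notch2_cKO, a 13.8-fold difference of means. Only 20 counts stood behind both Notch2_cKO values together (exact Poisson 95% interval 12.2 to 30.9 counts, for counting error only), so the size of this ratio is loosely fixed. The member assigned to Pcdh15, a protocadherin of sensory hair cells, lies 53877 bp outside the gene. It had 4.15 and 5.09 CPM in the controls and 0.496 and 0.405 CPM in Notch2_cKO, again from 20 counts in Notch2_cKO. Of the 61 other regions assigned to Pcdh15, 22 fell and 4 rose (18 and 4 without control 2). Another protocadherin gene, Pcdh10, a homophilic cell adhesion gene, had a member 221 bp from the gene's end with 8.80 and 6.88 CPM in the controls and 0.859 and 1.70 CPM in Notch2_cKO. A non-member region inside Pcdh10, chr3:45432151-45432700, fell from 3.65 ± 0.0487 to 1.53 ± 0.245 CPM (SD, n = 2 each; log2 difference −1.39, SE 0.23, edgeR adjusted p = 0.000199).

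The member with the highest control mean was assigned to Rab39, a small GTPase of the Rab family that directs vesicle traffic. It lies 30918 bp outside the gene at chr9:53736851-53737450 and stood at 13.9 and 11.3 CPM in the controls and 1.39 and 1.46 CPM in Notch2_cKO. The Notch2_cKO libraries were closer to each other there than the controls, and the control mean was 8.88-fold higher. A region with no protein-coding gene within 100000 bp followed, which was the higher of the pair in control 2, at chr4:22190501-22191100, with 12.8 and 12.1 CPM in the controls and 1.22 and 1.70 CPM in Notch2_cKO. A comparable height was reached by the gene-free member at chr1:104535351-104535950, with 11.5 and 9.01 CPM in the controls and 1.19 and 1.86 CPM in Notch2_cKO. Vps35l, a subunit of an endosomal recycling complex, had 9.56 and 9.71 CPM in the controls and 1.69 and 1.62 CPM in Notch2_cKO. Tenm4, a teneurin that acts in cell adhesion, had 8.93 and 9.05 CPM in the controls and 1.59 and 1.62 CPM in Notch2_cKO. At Vps35l and Tenm4 the libraries of a genotype hardly differed, in values that the rule chose. Of 65 other regions assigned to Tenm4, 19 fell and 8 rose (11 and 6 without control 2), and of 8 at Vps35l, 3 fell and 0 rose.

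Of the guidance genes, one had a member. Slit3, a secreted ligand of Robo receptors, had 5.71 and 6.45 CPM in the controls and 1.85 and 0.891 CPM in Notch2_cKO. At Slit3 the Notch2_cKO libraries were less alike than the controls, and of 57 other regions assigned to the gene 15 fell and 9 rose (14 and 6 without control 2). The one of smallest p, chr11:35065801-35066450, rose from 1.82 ± 0.00436 to 9.84 ± 1.42 CPM (SD, n = 2 each; log2 difference 2.36, SE 0.20, edgeR adjusted p = 1.27e-07). Of the 718 other regions of the guidance list, 119 fell (16.6%) and 97 rose (13.5%), beside 11.2% and 12.5% of all regions. Ephb6, an Eph receptor without kinase activity and not on that list, had a member over its gene end with 8.29 and 8.51 CPM in the controls and 1.92 and 1.78 CPM in Notch2_cKO.

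Of transcription factor genes on the mesenchymal list, Gata3 and Sox5 had one member each. The Gata3 member lies 61528 bp outside the gene and stood at 6.22 and 4.70 CPM in the controls and 1.52 and 1.70 CPM in Notch2_cKO. A neighbouring Gata3 region, chr2:9840801-9841550, rose from 2.89 ± 0.519 to 10.4 ± 0.0541 CPM (SD, n = 2 each; log2 difference 1.76, SE 0.18, edgeR adjusted p = 1.38e-06). Another Gata3 non-member fell, chr2:9884201-9884700, from 5.38 ± 0.296 to 3.43 ± 0.647 CPM (SD, n = 2 each; log2 difference −0.80, SE 0.20, edgeR adjusted p = 0.00528), a call lost without Notch2_cKO 1 and with DESeq2. Regions assigned to Gata3 thus moved in both directions. The Sox5 member had 5.54 and 4.74 CPM in the controls and 1.29 and 1.86 CPM in Notch2_cKO. A strong non-member region in Sox5, chr6:144141151-144141800, fell from 37.7 ± 3.91 to 20.8 ± 4.45 CPM (SD, n = 2 each; log2 difference −0.88, SE 0.14, edgeR adjusted p = 0.000123). The 818 other regions of this list held 78 that fell (9.5%) and 117 that rose (14.3%), beside 11.2% and 12.5% of all regions.

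Angpt1, the ligand of the endothelial receptor Tie2, carried 2 members within the gene, 56550 bp apart. The first had 5.21 and 5.59 CPM in the controls and 1.72 and 1.94 CPM in Notch2_cKO. The second had 5.21 and 4.27 CPM in the controls and 1.88 and 1.62 CPM in Notch2_cKO. A non-member outside the gene, chr15:42694351-42695000, fell from 12.9 ± 0.693 to 6.63 ± 0.0249 CPM (SD, n = 2 each; log2 difference −1.05, SE 0.15, edgeR adjusted p = 5.9e-05). A region inside Angpt1, chr15:42628551-42629100, rose from 1.54 ± 0.0789 to 3.73 ± 0.458 CPM (SD, n = 2 each; log2 difference 1.15, SE 0.23, edgeR adjusted p = 0.000954). Of 19 other regions of the gene, 6 fell and 2 rose (4 and 1 without control 2). In the PDGF, FGF and VEGF list, 23 of 264 other regions fell (8.71%) and 61 rose (23.1%), beside 11.2% and 12.5% of all regions.

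The Cd80 member whose sequence is printed above had 4.99 and 4.27 CPM in the controls and 1.09 and 1.54 CPM in Notch2_cKO. Its neighbour at the low-coordinate end of the gene, chr16:38457051-38457650, was not a member and fell from 6.57 ± 1.09 to 2.32 ± 0.0493 CPM (SD, n = 2 each; log2 difference −1.60, SE 0.20, edgeR adjusted p = 9.87e-06). The non-member regions named beside Heyl, Pcdh10, Slit3, Gata3, Sox5, Angpt1 and Cd80 were chosen after their values were seen, from the called regions at genes with a named member. Without control 2 those at Heyl, Pcdh10, Sox5 and Cd80 and both at Gata3 kept their direction. The falling one at Angpt1 and the rising one at Slit3 did too. The rising one at Angpt1 was not run in any alternative.

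Further members at gene ends were assigned to Tctn3, a protein of the ciliary transition zone, Tank, a regulator of TRAF signalling, Amotl1, an angiomotin that binds YAP, Pdcd6ip, an adaptor of the ESCRT machinery, and Pigz, an enzyme of GPI anchor synthesis. Their control values ran from 4.12 CPM at Tank to 6.72 CPM at Amotl1, and their Notch2_cKO values from 0.859 CPM at Tctn3 to 1.94 CPM at Amotl1. The control mean was 4.58-fold higher at Tctn3, 3.87-fold at Tank, 3.48-fold at Amotl1, 3.15-fold at Pdcd6ip and 2.59-fold at Pigz. The member inside Sipa1l1, a Rap GTPase-activating protein, had 4.40 and 4.20 CPM in the controls and 0.760 and 0.486 CPM in Notch2_cKO. The 3 remaining gene-free members of lowest ratio were chr5:45181101-45181750 with 7.66 and 8.24 CPM in the controls and 0.826 and 1.13 in Notch2_cKO, chr2:133178851-133179400 with 4.11 and 4.43 against 0.264 and 0.810, and chr9:47372351-47372950 with 7.24 and 5.71 against 1.06 and 0.810.

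**Figure D2:**
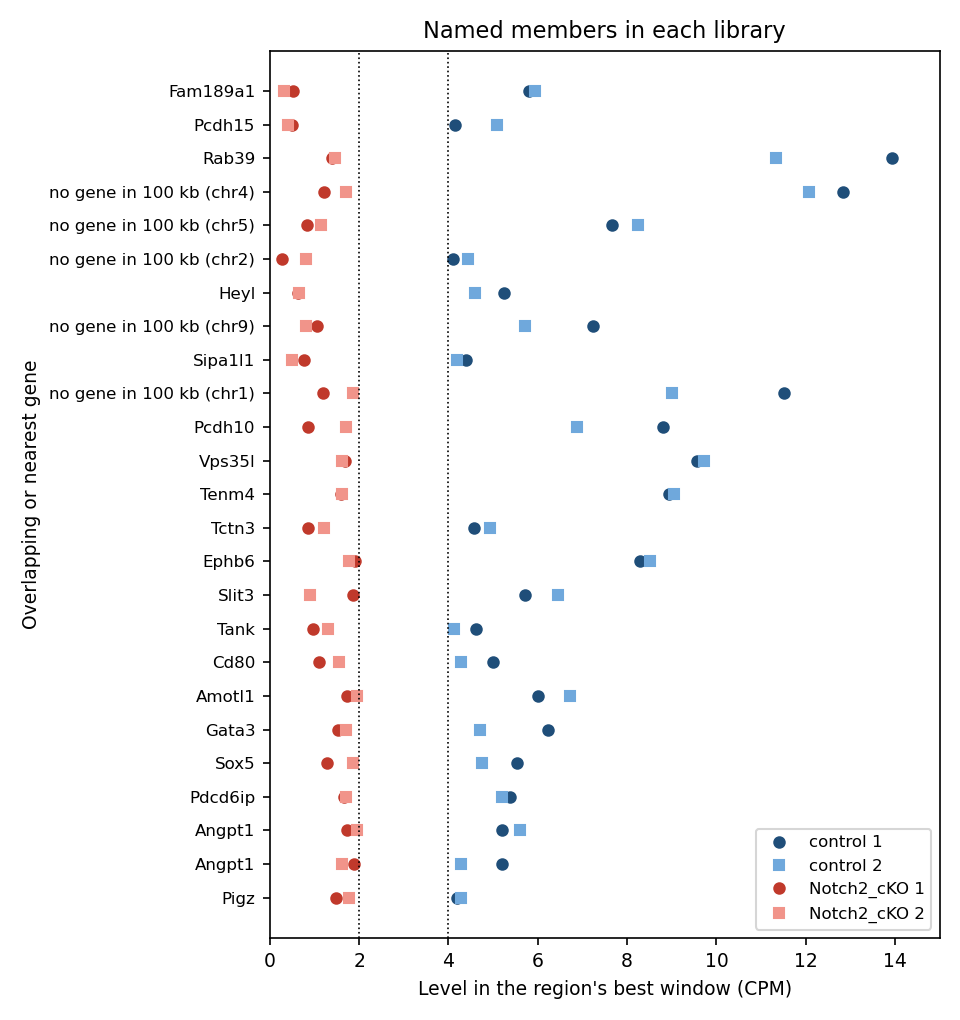
CPM in each of the 4 libraries (linear axis) for the members named by rule, with 1 row per member and 1 point per library, controls in blue and Notch2_cKO in red, and dotted lines at the thresholds. In every row both control points lie to the right of 4 CPM and both Notch2_cKO points to the left of 2 CPM, as the rule fixes.

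Most members lay away from gene ends, and position was not used by the rule. Of the 194 members, 9 (4.64%) lay within 1000 bp of a gene end, 81 (41.8%) elsewhere in a gene, 48 (24.7%) outside but within 100000 bp, and 56 (28.9%) farther from any protein-coding gene. Of 26137 non-members with control levels in the same range, the shares were 9.04%, 44.5%, 34.1% and 12.4%. That range runs from 4 to 13.9 CPM, and levels within it were not matched. Of the members, 79 had both controls under 5 CPM and 8 had both at 8 CPM or more. The part of level in these differences was not tested. Of 184 members on chromosomes in the RefSeq promoter table, 1 (0.543%) lay within 1000 bp of a tabulated start, against 6.54% of the similar non-members and 9.87% of all regions. The median distance to a tabulated start was 99000 bp for members and 45370 bp for similar regions. The table lacks the starts of some genes, so these shares and distances count tabulated starts only. For members inside a gene the median length of that gene was 143900 bp, beside 126200 bp for similar regions. These shares are descriptions, and exon and intron positions are not analysed here.

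**Figure D3:**
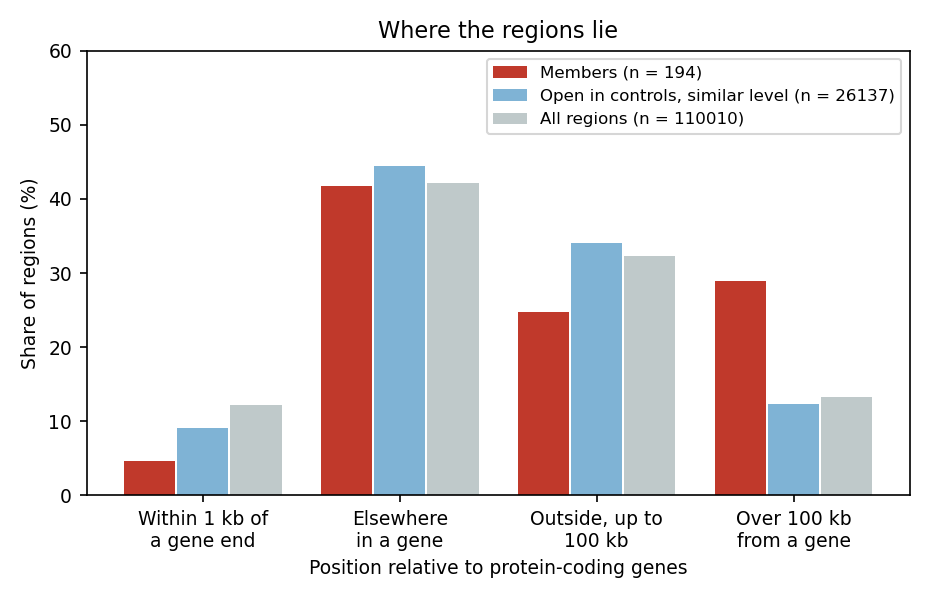
Share of regions, in percent, in 4 positions relative to protein-coding genes, for the 194 members, open control non-members of similar level and all regions. Similar level means both controls at 4 to 13.9 CPM, with no closer matching. Members have the highest share of regions over 100 kb from a gene (28.9% against 12.4% and 13.3%) and the lowest share at gene ends (4.64%).

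The 138 members that could be assigned to a gene fell on 135 genes, of which Tenm4, Angpt1 and Ripor2 had 2 members each. The members were spread thinly: the median distance to the nearest other member on the chromosome was 3390000 bp, none lay within 10000 bp of another, and 18 did so within 200000 bp. The closest were the Tenm4 members, 12050 bp apart. Chromosome 1 had the most members, 19, followed by chromosome 9 with 17 and chromosome 2 with 16. Per 1000 open control regions the range ran from 1.80 on chromosome 10 to 7.69 on chromosome 12. Region widths were 300 to 700 bp with a median of 600 bp, the same median as over all regions.

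Regions next to the members, which the rule did not choose, held more that fell and fewer that rose than the autosomal regions in general. The 242 non-members within 10000 bp of a member held 98 that fell (40.5%) and 6 that rose (2.48%), with a median log2 difference of −0.43. At 10000 to 20000 bp 27.2% fell and 4.26% rose, and at 20000 to 50000 bp 20.6% fell and 7.89% rose. At 200000 to 500000 bp the shares were 13.8% lower and 12.1% higher, beside 11.01% and 12.7% over all autosomal non-members. Up to 50000 bp there were 1073 non-members: 285 fell (26.6%), 63 rose (5.87%) and 725 did not pass the test. Without control 2, 31.8% fell within 10000 bp, 20.9% at 10000 to 20000 bp, 14.8% at 20000 to 50000 bp and 9.43% at 200000 to 500000 bp. Up to 50000 bp 214 then fell (19.9%, against 7.47% of all regions) and 37 rose (3.45%, against 8.12%). DESeq2 called fewer, 146 lower (13.6%, against 5.28% of all regions) and 32 higher (2.98%, against 7.12%). These regions come from the same 4 libraries as the members, so the counts describe the libraries and are no independent replication.

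**Figure D4:**
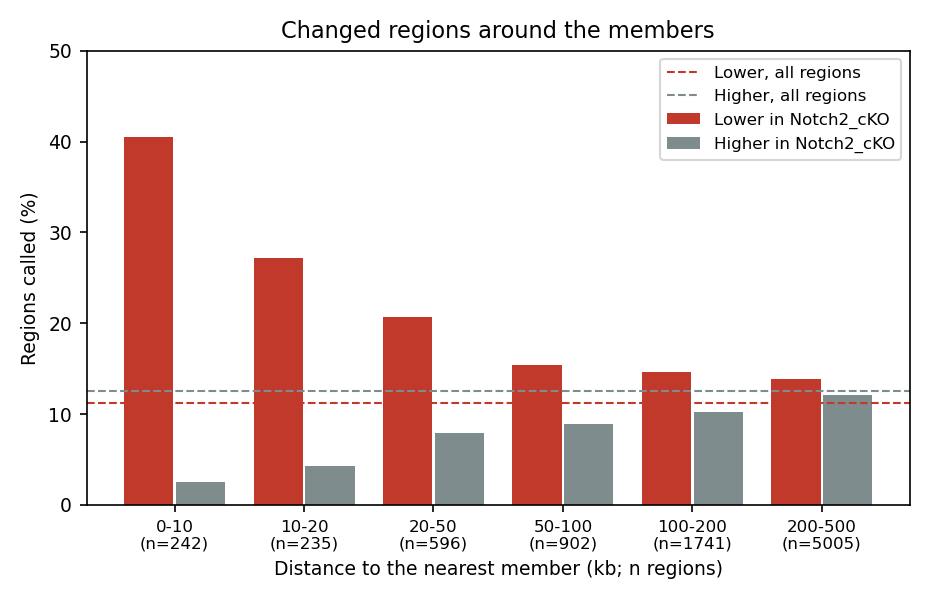
Share of non-member regions called lower or higher in Notch2_cKO, in percent, by distance to the nearest member, with dashed lines at the shares over all regions (11.2% lower and 12.5% higher). The share called lower declines from 40.5% within 10 kb to 13.8% at 200 to 500 kb, and the share called higher climbs from 2.48% to 12.1%.

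Of the 194 members, 182 had a non-member within 50000 bp. By position, 15.4% of these neighbours fell at gene ends (4.36% over all autosomal regions there), 29.0% elsewhere in genes (11.3%), 20.5% outside but within 100000 bp (10.9%) and 39.5% farther from a gene (16.5%). Without control 2 these 4 shares of neighbours were each lower, but no shares over all autosomal regions by position were computed for that fit. Among neighbours with both controls at 4 CPM or more, 28.9% fell, against 13.7% over all such regions. For neighbours with a mean level under 4 CPM the share was 28.5%, against 10.98%.

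Most tabulated start regions of genes with a member did not pass the test. The promoter table holds no start for some of these genes, Heyl and Angpt1 among them. Their regions at gene ends are therefore not counted here. Of 69 non-member regions at tabulated starts of these genes, 12 fell (17.4%), 1 rose and 56 did not pass the test, where 3.69% of all 10496 start regions fell and 5.11% rose. Without control 2, 8 of the 69 fell (1.72% of all start regions). The deepest was Rab39, whose start stood at 13.8 and 16.9 CPM in the controls and 4.46 and 3.73 CPM in Notch2_cKO (log2 difference −1.96, SE 0.17, edgeR adjusted p = 2e-07). The distant Rab39 member is lower by the rule, so at Rab39 only the start carries a test. The start of Vwa3a stood at 2.58 and 3.92 CPM against 1.45 and 0.891 (log2 difference −1.44, SE 0.28, adjusted p = 0.000777 by edgeR). Ryr2, a calcium release channel, had 14.8 and 13.4 CPM at its start against 8.53 and 6.48 (−0.96, SE 0.16, edgeR adjusted p = 0.000217). Ttyh1 had 7.49 and 7.34 CPM against 3.8 and 3.809 (−1.05, SE 0.18, edgeR adjusted p = 0.000196). The starts of Kbtbd13, Spata13, Cdk18, Irx3, Ripor2, Med12l, Efr3b and Pde10a fell by 0.38 to 0.99 on the log2 scale, and each of these except Cdk18 lost its call in at least 1 alternative. With TMM scaling 21 of the 69 fell, where 13.3% of all start regions did. Without Notch2_cKO 2, 8 rose (13.0% of all start regions) and without control 1, or without control 2, none did. Rasgrp3, an exchange factor for Ras, was the one start that rose (log2 difference 0.55, SE 0.14, edgeR adjusted p = 0.00538), although its member was lower by the rule; this call was lost without control 1 and without control 2. At Pcdh15, Slit3, Sipa1l1 and Tank the start did not pass the test.

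**Figure D5:**
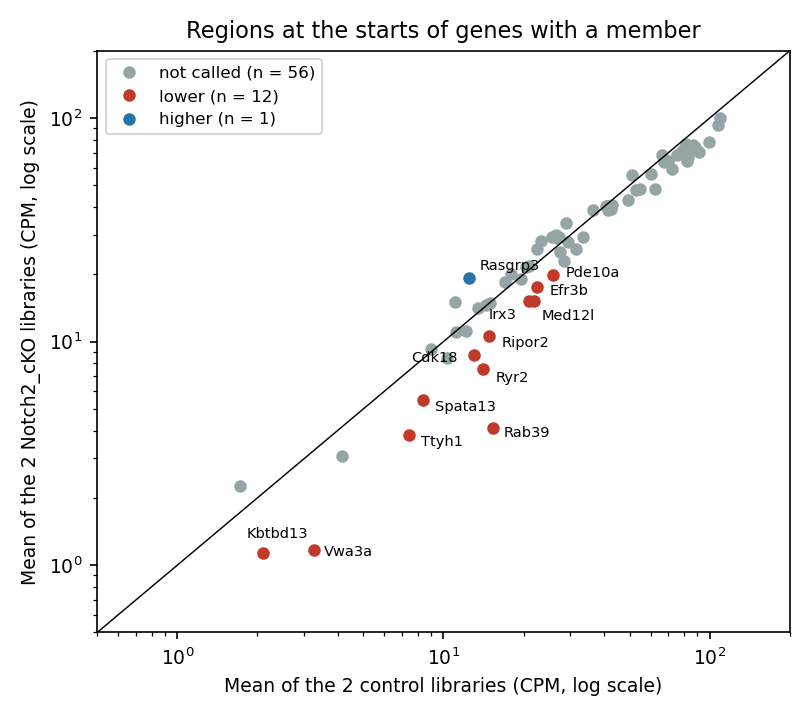
Mean CPM of the 2 Notch2_cKO libraries against mean CPM of the 2 control libraries (log axes) for the 69 non-member regions at starts of genes with a member, with the line of equality. Points of 12 starts that fell lie below the line, 1 that rose lies above it, and 56 that did not pass the test follow it.

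Over all 1750 other regions of the 135 genes with a member, 426 fell (24.3%) and 154 rose (8.8%), with a median log2 difference of −0.17. Without control 2, 297 fell (17.0%) and 90 rose (5.14%). Of the 16 pathway lists, 4 held a member: Notch targets, mesenchymal transcription factors, guidance genes and PDGF, FGF and VEGF genes. Together the pathway lists held 6 members among 1892 open control regions, or 3.17 per 1000, beside 4.35 per 1000 over all open control regions. No list of T-zone, B-zone, medullary or adventitial reticular cell genes, mural genes or Notch receptors, ligands and regulators held one. The same holds for extracellular matrix, Wnt, TGF-beta and BMP, NF-kappaB, YAP and TEAD and AP-1 genes. Each of these lists had 23 to 201 open control regions and at the overall share would hold few or none. Nothing is read from these small counts.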

How the data were processed

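ATAC-seq of 4 libraries was analysed. The deposited table holds whole-number counts per overlapping 300-bp window; per the labels they come from csaw with loess normalization, but totals up to 2.45 times apart led to treatment as counts without normalization. Tools named in the submitters' processing notes are Bowtie2 (2.4.5) on build mm10, Trim Galore (0.6.7) with cutadapt, Picard (2.27.5), SAMtools (1.14) and deepTools. The sources used here give no peak caller, window filter or transposase shift.

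Windows up to 100 bp apart were merged, and the window with the highest summed counts stood for each region. CPM is its count divided by the library's total over these windows, times 1000000. edgeR 4.0.16 (quasi-likelihood, R 4.3.3, limma 3.58.1 loess offsets, Benjamini-Hochberg threshold 0.05) was fitted to genotype over all regions and used for non-members; it was tested on simulated data. DESeq2 1.42.0 and limma were alternatives. Genes came from RefSeq, by overlap of the best window's midpoint or else the nearest within 100000 bp. Named were the 10 members of lowest ratio, the 6 highest in the controls, up to 3 per gene list, up to 8 at gene ends, genes with 3 or more members (there were none) and 3 regions each side of each threshold. The members and lists were chosen with earlier results of these data known. A few items are not reported here. P-values measure the spread between 2 pools per genotype.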

Additional observations from a re-analysis of the deposited data

How the results depend on the processing

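The number of members followed the thresholds: 68 with 5 CPM in the controls, 632 with 3 CPM, 60 with 1.5 CPM in Notch2_cKO and 401 with 2.5 CPM. Leaving a library out of the rule gave 253 to 353 regions, the most without Notch2_cKO 2. Other scalings and merging rules gave 185 to 241. Members at gene ends were 28 rather than 9 with ends taken within 5000 bp.

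Over all regions, leaving out 1 library gave 7993 to 14732 lower and 8939 to 15497 higher regions (12324 and 13786 in full), the fewest lower without control 1 and the fewest higher without control 2, and DESeq2 gave 5470 and 7381. Among neighbours within 50000 bp, DESeq2 called 146 lower and 32 higher (13.6% lower, against 5.28% of all regions), and leaving out 1 library gave 196 to 317 lower and 37 to 71 higher, the lowest higher count without control 2. Within 10000 bp there were 98 lower and 6 higher, and within 200000 bp 679 and 322. For start regions of genes with a member, TMM scaling called 21 lower, median centring 20 and the crossed pairing of replicate numbers 19 (and 5 higher); over all start regions TMM called 13.3% lower, median centring 12.5%. Leaving out 1 library gave 8 to 16 lower and 0 to 8 higher, the 8 without Notch2_cKO 2.

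Control 1 and Notch2_cKO 1 did not deviate from their group means in the same direction over regions (correlation −0.15). This gives no sign of pairing by replicate number. With 2 libraries per group it leans to the crossed pairing, and it does not settle whether samples are paired. With the replicate block 10756 regions were lower and 12207 higher, and 255 and 55 neighbours; with the crossed pairing, added after seeing the data, these were 16809, 18210, 350 and 88. No single region that was run in the alternatives reversed. The rising region inside Angpt1 was not run in them. The start calls of Pde10a were lost in 5 alternatives, Efr3b in 4, Kbtbd13 in 3, Ripor2 and Rasgrp3 in 2, and Irx3, Med12l and Spata13 in 1; the start calls of Rab39, Ryr2, Ttyh1, Vwa3a and Cdk18 were kept in all 11. The start regions of genes with a member, the single non-member regions and the counts without control 2 by distance, position, gene and list were added after seeing the data.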

Other observations

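Some further members are given as single values. They were picked after their values were seen and stand for no group of genes. The member inside Lcp2, an adaptor of antigen receptor signalling, stood at 4.49 and 4.51 CPM in the controls and 1.59 and 1.13 CPM in Notch2_cKO. The member near Grm5, a glutamate receptor gene, stood at 5.25 and 5.44 CPM in the controls and 0.760 and 0.891 CPM in Notch2_cKO. The member inside Nid1, a basement membrane protein gene, stood at 6.18 and 4.04 CPM in the controls and 1.78 and 1.78 CPM in Notch2_cKO.

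The fixed lists nearest to these genes held no member. Those of T cell, myeloid and dendritic cell, and extracellular matrix genes had 11, 15 and 183 open control regions. At the overall share of 4.35 members per 1000 such regions each would hold few or none, so nothing is read from this. Of 50 regions of T cell marker genes 2 were called lower and 10 higher by edgeR. Of 43 regions of myeloid and dendritic cell marker genes 2 were lower and 8 higher. Of 380 regions of extracellular matrix genes 43 were lower and 74 higher. The shares over all regions were 11.2% lower and 12.5% higher.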
